A study of Mus musculus with 8 samples.

Results

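The 78 genes described here carry the names of the mitochondrial ribosomal proteins of the mouse, taken as every gene of the deposited expression table whose symbol begins with Mrpl or Mrps followed by a digit. The table holds 15465 genes, and the rule for membership reads the symbols alone. Among them Mrps36 bears the name but is a protein of another complex. All samples were dendritic cells of wild-type C57/BL6 mice, and they differed in the siRNA that they had received. In the si-Suclg2 group (n = 4) the siRNA was directed at Suclg2, the GTP-forming beta subunit of succinyl-CoA ligase, an enzyme of the citric acid cycle. In the si-nc group (n = 4) it was a control siRNA. Before transfection all cells had the same history. Bone marrow was cultured for 6 days in GM-CSF and IL-4 and stimulated with LPS for 24 hours, CD11c+ cells were collected with magnetic beads, and these were kept on spleen stroma cells for 9 days, which gives the cells the labels call diffDC. The sources used here give neither the time from transfection to RNA extraction nor whether replicates came from separate mice or cultures, so p-values measure only the spread between these samples, which may be technical.

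Mitochondria carry their own ribosome, which translates the few messages of the mitochondrial genome, all of them for subunits of the respiratory chain and ATP synthase. Its RNAs are transcribed inside the organelle, but all of its proteins are encoded in the nucleus, made on cytosolic ribosomes and imported. The large subunit holds the catalytic centre and the exit tunnel, and the small subunit reads the message. Some proteins of each subunit have a counterpart in the bacterial ribosome, and others exist in mitochondria alone. Transcripts of mitochondrial genes are not in the table and were not analysed here.

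The samples were checked first by the siRNA target. Suclg2 had 2.23, 2.30, 2.76 and 2.61 FPKM in the si-Suclg2 samples, against 4.68, 4.69, 4.56 and 4.43 FPKM in the si-nc samples. The groups did not overlap, and 53.9% of the si-nc level remained with si-Suclg2 (two-sided exact permutation test, p = 0.0286, the smallest that 4 against 4 samples can give). FPKM, a level per transcript length and library size, is the unit the values are taken to have, since the file does not name it. The 8 columns summed to between 506242 and 539290, the read depth is unknown, and between 9903 and 10177 genes per sample reached 1 FPKM. Of 10 dendritic cell markers 9 were in the table and 6 were tested. The CD11c gene Itgax averaged 12.6 ± 0.958 FPKM with si-Suclg2 and 20.2 ± 2.84 FPKM with si-nc (SD, n = 4 each), and Cd74, the invariant chain of MHC class II, averaged 506 ± 59.6 FPKM with si-Suclg2 and 883 ± 67.0 FPKM with si-nc. Flt3, Zbtb46 and Clec9a, markers of conventional dendritic cells, were below 1 FPKM in both group means.

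Cell type markers moved with the comparison. Summed over the 9 dendritic cell markers, the level was 622 to 852 FPKM in the si-Suclg2 samples and 1149 to 1377 FPKM in the si-nc samples, and in limma's test with Benjamini-Hochberg adjustment 3 of 6 fell (Cd74, Itgax and H2-Aa) and 0 rose, where 1 was higher at an unadjusted p of 0.05 and 1 in the authors' deposited table. Of 8 macrophage and monocyte markers 2 rose and 4 fell, with Adgre1, the F4/80 antigen, at 597 ± 52.4 FPKM with si-Suclg2 and 333 ± 37.6 FPKM with si-nc, and the summed level lay at 15826 to 18864 FPKM with si-Suclg2 and at 21504 to 26898 FPKM with si-nc. Stroma markers summed to 7.38 to 16.2 FPKM with si-Suclg2 and 8.79 to 21.5 FPKM with si-nc, and lymphocyte markers to at most 0.18 FPKM in any sample. Of 9 stroma markers 4 were tested, and 0 passed in limma's test. All 4 were lower with si-Suclg2 (median log2 difference -0.47), 1 of them at an unadjusted p of 0.05. The authors' deposited table has 1 higher and 6 lower of the 9. The part of these differences in the results below was not tested. In bulk RNA, fewer cells of a type and less RNA per cell cannot be told apart.

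All 78 genes were expressed well above the detection filter, a group mean of 1 FPKM, and all 78 were tested. Their median level was 22.7 FPKM with si-Suclg2 and 21.9 FPKM with si-nc, beside medians over all 10176 genes tested of 11.1 FPKM with si-Suclg2 and 11.2 FPKM with si-nc. The lowest and highest gene lay 18.4-fold apart with si-Suclg2 and 13.9-fold apart with si-nc. In 65 of the 78 genes both group means reached 10 FPKM. Large-subunit genes had a median of 24.1 FPKM with si-Suclg2 and 22.8 FPKM with si-nc, and small-subunit genes had medians of 19.2 FPKM with si-Suclg2 and 17.1 FPKM with si-nc.

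At the top of the order stood Mrpl42, a mitochondrion-specific protein of the large subunit, with 82.5 ± 4.04 FPKM with si-Suclg2 and 68.1 ± 6.64 FPKM with si-nc (SD, n = 4 each). Mrpl30 (78.6 ± 9.67 FPKM with si-Suclg2 and 68.7 ± 7.49 FPKM with si-nc) and Mrps18c (73.6 ± 3.22 FPKM with si-Suclg2 and 64.6 ± 8.04 FPKM with si-nc) followed, then Mrpl52 (67.4 ± 3.42 FPKM with si-Suclg2 and 67.2 ± 7.79 FPKM with si-nc) and Mrps21 (62.2 ± 3.15 FPKM with si-Suclg2 and 63.8 ± 8.07 FPKM with si-nc). Neighbours among these 5 overlapped in their ranges over the 8 samples. At the bottom stood Mrps25 with 4.48 ± 0.365 FPKM with si-Suclg2 and 5.03 ± 0.282 FPKM with si-nc. Next above it were Mrpl17 (4.98 ± 0.319 FPKM with si-Suclg2 and 5.04 ± 0.284 FPKM with si-nc), Mrpl19 (5.19 ± 0.478 FPKM with si-Suclg2 and 4.95 ± 0.293 FPKM with si-nc), Mrps28 (5.23 ± 0.613 FPKM with si-Suclg2 and 5.73 ± 0.237 FPKM with si-nc) and Mrpl35 (7.23 ± 0.423 FPKM with si-Suclg2 and 6.41 ± 0.496 FPKM with si-nc). These 5 genes include members of both subunits. The order of the 78 genes was nearly the same in the 2 groups, with a Spearman rho of 0.989 across genes, which are not independent replicates.

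**Figure D1:**
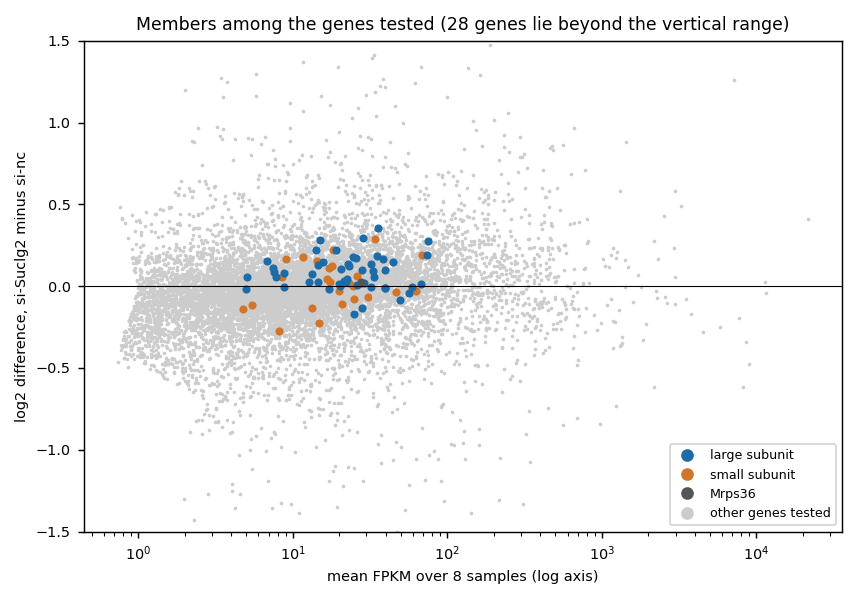
Log2 difference (si-Suclg2 minus si-nc, vertical axis) against the mean FPKM over 8 samples (horizontal log axis) for the genes tested, with large-subunit genes in blue, small-subunit genes in orange, Mrps36 in dark grey and the other genes in light grey; 28 genes lie beyond the vertical range. The ribosomal protein genes sit between 4.75 FPKM (Mrps25) and 75.3 FPKM (Mrpl42), in a band between -0.27 and 0.36.

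Most mitochondrial ribosomal protein genes differed little between the groups. In limma's test on log2(FPKM + 1) with Benjamini-Hochberg adjustment over all genes, 12 of 78 passed adjusted p 0.05, that is 15.4%, where 26.9% of all genes tested passed. Of these 12, 10 were higher with si-Suclg2, against a background of 12% of all genes, and 2 were lower, against 14.9%. At an unadjusted p of 0.05, 21 genes passed (19 higher and 2 lower), against 38.6% of all genes. Of all 10176 genes tested, 1718 were higher and 2214 lower at that p. The groups did not overlap in 8 genes that were higher and 1 that was lower, where 13.2% and 16.4% of all genes were so separated. The share of these genes called was thus below the background, and the share called higher (10 of 78) was near it.

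The sizes were small. The median log2 difference, si-Suclg2 minus si-nc, was 0.05, with quartiles of -0.01 and 0.15 and a range of -0.27 to 0.36, beside a median of -0.03 for all genes tested. The mean level differed by between -19.2% and 29.2%. A difference was positive in 56 genes and negative in 22. The median absolute log2 difference was 0.088 for these genes and 0.123 for all genes, and 0 of the 78 reached 0.5, which 642 of all genes (6.31%) did. The 95% interval lay within 0.5 either way in 77 genes, Mrpl32 being the exception with an upper bound of 0.54, and within 0.25 either way in 43.

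**Figure D2:**
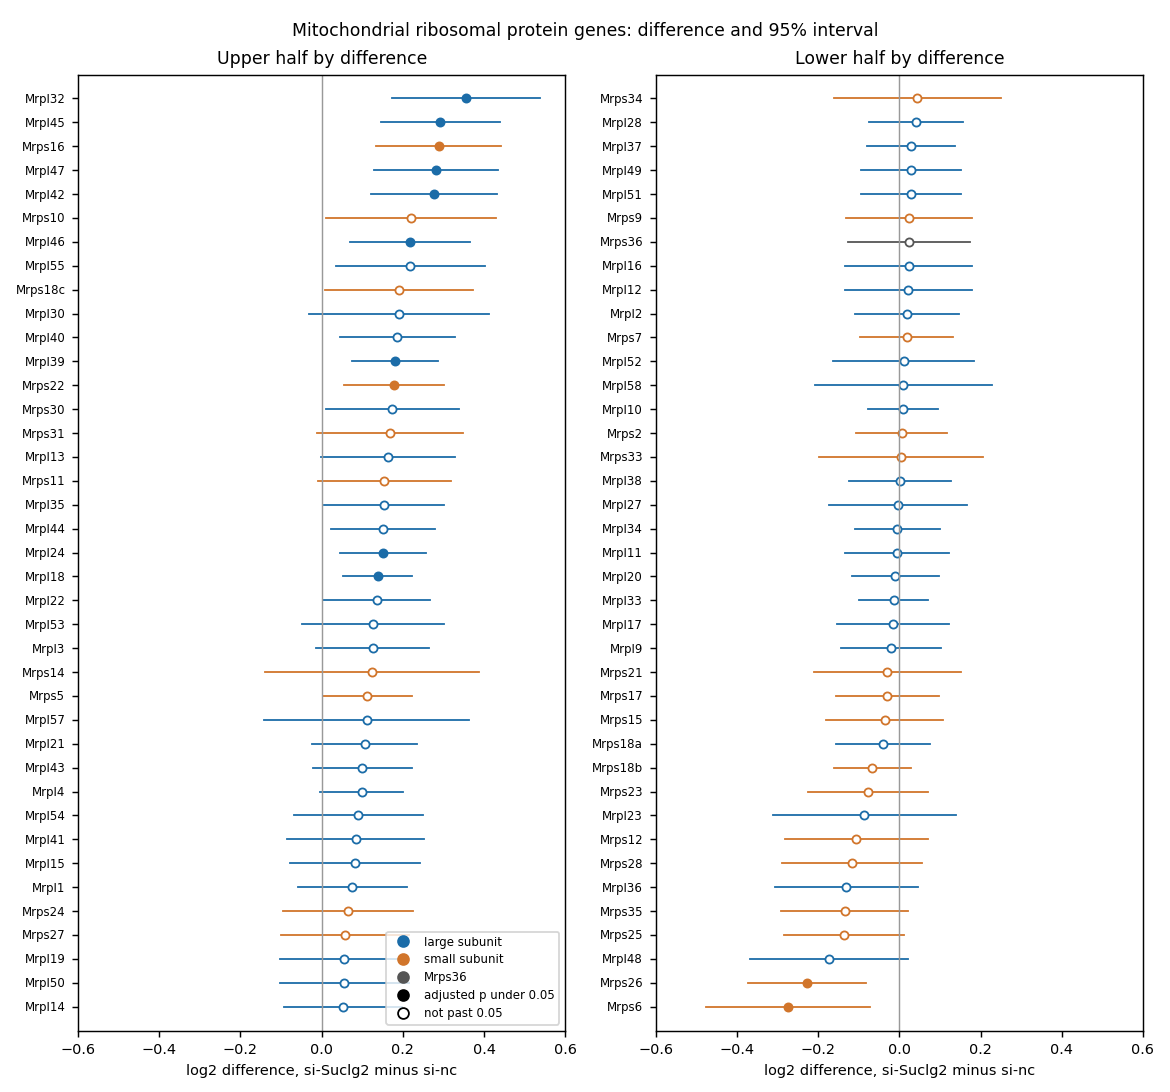
Log2 difference (si-Suclg2 minus si-nc) of the 78 genes with its 95% interval, ordered by size in a left and a right panel; filled points passed adjusted p 0.05. Mrpl32 at 0.36 and Mrps6 at -0.27 mark the ends, and 10 filled points lie to the right of 0 and 2 to the left.

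Whether same-numbered samples are treated as pairs changed the count. The labels number the samples of each group 1 to 4 without tying a number to a mouse or day, but same-numbered samples deviated together from their group means, with correlations of 0.405 to 0.553 across genes. With the number as a block, 24 of the 78 genes passed, where 40.5% of all genes did. Of these 20 were higher, against 18% of all genes, and 4 were lower, against 22.5%. The block kept the 12 calls and added Mrpl55, Mrps10, Mrpl30, Mrpl40, Mrps18c, Mrps30, Mrpl35, Mrpl13, Mrpl22 and Mrpl3 on the higher side and Mrpl36 and Mrpl48 on the lower side. With trimmed-mean scaling added to the block 28 passed, against 40.4%, and with the columns scaled to a common sum and no block 8 were higher, against 10.2%. Leaving out si-nc 1, si-Suclg2 3 or si-Suclg2 4 left 5 genes higher, leaving out si-nc 3 left 6, and 0 genes were lower without si-nc 2 or si-nc 4. Without si-Suclg2 4 the gene called lower was Mrpl48, so that Mrps26 and Mrps6 both lost their calls in 3 of the 8 fits.

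Among the large-subunit genes 8 of 51 rose (15.7%, against 12% of all genes tested) and 0 fell (against 14.9%), with a median log2 difference of 0.08. Without a replicate block the share that rose was near that of all genes. With the block and trimmed-mean scaling 19 of the 51 rose, where 20.2% of all genes did. Over the alternatives other than leaving out a sample, 0 to 19 were higher and 0 to 2 lower. At an unadjusted limma p of 0.05, 14 were higher and 0 lower, in total 27.5% against 38.6% of all genes. Of all 10176 genes tested, 1718 were higher and 2214 lower at that p. The authors' deposited table has 20 higher and 2 lower at q under 0.05, where 19.1% of its genes are higher and 28.5% lower. Mrpl32 (chr13:14610301-14613037, minus strand, GRCm38) encodes a protein with a bacterial counterpart whose precursor is cleaved by the m-AAA protease before it joins the ribosome. It had 34.5, 39.7, 40.8 and 45.2 FPKM in the si-Suclg2 samples, against 29.7, 29.1, 31.0 and 34.2 FPKM in the si-nc samples. Every si-Suclg2 sample lay above every si-nc sample, the closest being si-Suclg2 1 and si-nc 4. The log2 difference was 0.36 ± 0.081 (SE; limma, adjusted p = 0.0102), the largest of the 78.

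Mrpl45 (chr11:97314923-97329920, plus strand) encodes a mitochondrion-specific protein at the tunnel exit that holds the ribosome to the inner membrane. Its level was 29.3, 29.3, 33.6 and 33.6 FPKM in the si-Suclg2 samples, against 23.5, 25.2, 27.2 and 26.01 FPKM in the si-nc samples. No si-nc sample reached the lowest si-Suclg2 sample, and within the si-Suclg2 group samples 3 and 4 were above samples 1 and 2. The log2 difference was 0.29 ± 0.065 (limma, adjusted p = 0.0092, the smallest of the 78).

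Mrpl47 (chr3:32727497-32736755, minus strand), the counterpart of bacterial L29 beside the exit tunnel, had 15.2, 16.3, 18.0 and 16.9 FPKM in the si-Suclg2 samples, against 12.1, 13.9, 14.5 and 13.5 FPKM in the si-nc samples. Mrpl42 (chr10:95480805-95501949, minus strand) had 77.7, 80.5, 86.1 and 85.5 FPKM in the si-Suclg2 samples, against 61.0, 65.3, 69.2 and 76.7 FPKM in the si-nc samples. In both genes the groups were apart, in Mrpl42 narrowly, between si-Suclg2 1 and si-nc 4. The log2 differences were 0.28 ± 0.068 for Mrpl47 (adjusted p = 0.0134) and 0.28 ± 0.069 for Mrpl42 (limma, adjusted p = 0.0161).

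The other large-subunit genes that passed changed less. Mrpl39, a mitochondrion-specific protein, averaged 26.02 ± 1.24 FPKM with si-Suclg2 and 22.8 ± 0.739 FPKM with si-nc (0.18 ± 0.047, limma adjusted p = 0.0198). Mrpl18, whose bacterial counterpart binds 5S rRNA, averaged 33.8 ± 0.249 FPKM with si-Suclg2 and 30.6 ± 0.900 FPKM with si-nc (0.14 ± 0.038, adjusted p = 0.0233), and neither gene's groups overlapped. Mrpl46 of the central protuberance, the crown of the large subunit that faces the small one, averaged 15.4 ± 1.33 FPKM with si-Suclg2 and 13.1 ± 0.599 FPKM with si-nc (0.22 ± 0.066, limma adjusted p = 0.0350). Mrpl24, the counterpart of bacterial L24, averaged 46.7 ± 2.45 FPKM with si-Suclg2 and 41.9 ± 1.13 FPKM with si-nc (0.15 ± 0.047, adjusted p = 0.0406). In both of these 1 si-Suclg2 sample, number 1 for Mrpl46 and number 2 for Mrpl24, lay within the si-nc range.

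Among the 26 small-subunit genes 2 rose and 2 fell (7.69% each, against 12% and 14.9% of all genes tested). Their median log2 difference was 0.01. It turned negative, -0.01, when the columns were scaled to a common sum, and was also below 0 without si-nc 1, si-nc 2, si-Suclg2 3 or si-Suclg2 4 (lowest -0.02). Mrps16 (chr14:20391222-20393634, minus strand) is the counterpart of bacterial S16, and in humans its loss of function is known to cause a respiratory chain deficiency. It had 34.99, 36.6, 39.2 and 39.6 FPKM in the si-Suclg2 samples, against 27.3, 33.1, 29.6 and 32.8 FPKM in the si-nc samples. The groups did not overlap, and the log2 difference was 0.29 ± 0.069 (limma, adjusted p = 0.0132). Mrps22, a mitochondrion-specific protein, had 12.2, 12.4, 12.3 and 12.5 FPKM in the si-Suclg2 samples, against 9.97, 11.7, 11.2 and 10.4 FPKM in the si-nc samples. The si-Suclg2 samples lay close together and all above the si-nc samples (0.18 ± 0.055, limma adjusted p = 0.0394).

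Both genes that fell belong to the small subunit. Mrps26 (chr2:130563757-130565394, plus strand), mitochondrion-specific, had 13.5, 14.1, 14.0 and 12.4 FPKM in the si-Suclg2 samples, against 14.5, 17.1, 15.5 and 17.0 FPKM in the si-nc samples. The groups were apart, though si-nc 1 stood close to si-Suclg2 2. Its log2 difference was -0.23 ± 0.065 (limma, adjusted p = 0.0278). Mrps6 (chr16:92058336-92112227, plus strand), whose bacterial counterpart S6 pairs with S18 on the platform of the small subunit, had 8.56, 7.08, 6.49 and 6.95 FPKM in the si-Suclg2 samples, against 8.71, 8.62, 8.26 and 10.4 FPKM in the si-nc samples. The si-Suclg2 1 sample lay within the si-nc range, and the log2 difference of -0.27 ± 0.090 passed narrowly (limma, adjusted p = 0.0486).

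**Figure D3:**
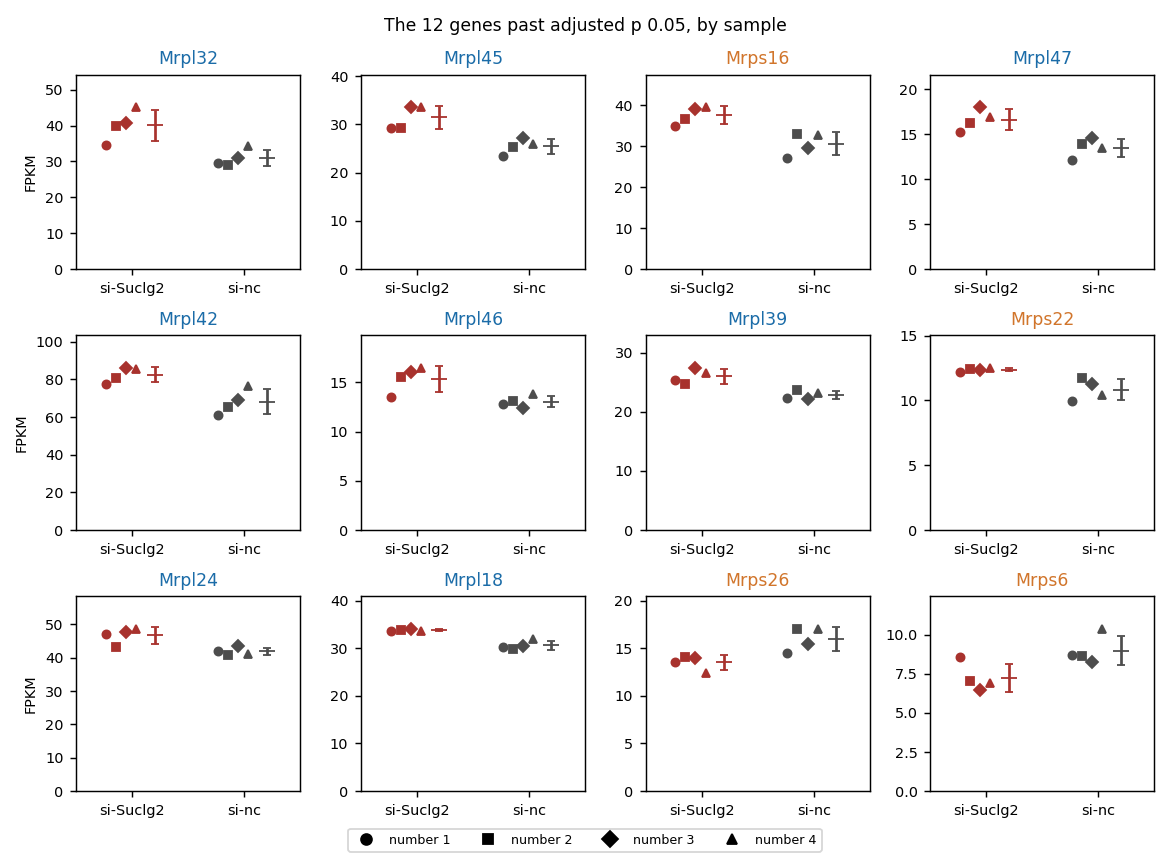
FPKM in each sample for the 12 genes past adjusted p 0.05, si-Suclg2 in red on the left and si-nc in grey on the right of each panel, with symbols for the sample number and the mean ± SD beside them (n = 4 each). Names of large-subunit genes are blue and of small-subunit genes orange; the first 10 panels hold the genes that rose and the last 2 those that fell, Mrps26 without overlap and Mrps6 with si-Suclg2 1 at 8.56 inside the si-nc range.

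How far the 12 calls depended on single samples differed between genes. Mrpl32, Mrpl45, Mrpl47, Mrpl42 and Mrps16 passed in all 8 fits that left out 1 sample and in 20 of 21 alternative settings. The remaining setting averaged sample 1 with 2 and sample 3 with 4 of each group. There limma called 0 of the 78 genes, 7 had an unadjusted p under 0.05, and of all genes 2.67% were called, 1.23% higher. Mrpl39 lost its call without si-nc 1, si-nc 3, si-Suclg2 3 or si-Suclg2 4, and Mrps26 without si-nc 2, si-nc 4, si-Suclg2 1 or si-Suclg2 4. Mrpl46 and Mrpl18 kept theirs only without si-nc 4 or si-Suclg2 1, Mrpl24 only without si-nc 3 or si-Suclg2 2, Mrps22 only without si-nc 2 and Mrps6 only without si-Suclg2 1.

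The difference between the subunits was not tested. Positive differences were found in 40 of 51 large-subunit and 15 of 26 small-subunit genes. Split by ancestry, 5 of 46 genes with a bacterial counterpart rose (10.9%) and 1 fell (2.17%), with a median log2 difference of 0.05. Of 31 mitochondrion-specific genes 5 rose (16.1%) and 1 fell (3.23%), with a median of 0.06. Of all genes tested 12% rose and 14.9% fell. Mrps18a and Mrps18b, which are related to bacterial S18 but do not take its place in the ribosome, are counted as mitochondrion-specific. By this description the calls were spread over both origins, and the genes that fell, Mrps26 and Mrps6, were 1 of each kind.

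The 78 genes lie on 17 chromosomes, and promoter sequences from RefSeq (GRCm38.p6, 250 bases before to 50 after the transcript start) were given for 69 of them. They were searched on both strands for the letters of sites known from nuclear genes for mitochondrial proteins, those of ETS factors such as GABP (CCGGAAG), of NRF1 (GCGC, any 1 base, then TGCGC) and of YY1 (AAGATGG). The ETS letters stood in 36.2% of the 69 promoters, against 20.7% of the 8249 promoters of genes tested and 9.12% of all 27025 promoters. The NRF1 letters stood in 18.8%, against 11.7% and 4.78%, and the YY1 letters in 18.8%, against 8.03% and 6.48%. None of the 3 was found in 27 of the 69 promoters, which says only that these letters are not in that window. The GC box (GGGCGG) stood in 49.3%, against 65.6% of genes tested, CCAAT in 39.1% and 39.0%, the E-box CACGTG in 7.25% and 10.8%, and the TATA letters (TATAAA) in 5.80% and 6.73%.

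Promoter stretches of 2 genes that rose and the 2 that fell are shown so that the letters can be read beside the expression differences. Each runs 5′ to 3′ on the gene's strand, and capitals mark ETS, NRF1 or YY1 letters on either strand. The stretches lie at chr11:97315576-97315745 (plus strand, Mrpl45), chr10:95501920-95502089 (minus strand, Mrpl42), chr2:130563602-130563771 (plus strand, Mrps26) and chr16:92058130-92058299 (plus strand, Mrps6).
Mrpl45: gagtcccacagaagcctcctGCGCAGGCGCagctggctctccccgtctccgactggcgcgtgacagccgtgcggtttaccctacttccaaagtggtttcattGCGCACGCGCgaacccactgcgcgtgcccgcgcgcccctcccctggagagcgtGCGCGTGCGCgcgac
Mrpl42: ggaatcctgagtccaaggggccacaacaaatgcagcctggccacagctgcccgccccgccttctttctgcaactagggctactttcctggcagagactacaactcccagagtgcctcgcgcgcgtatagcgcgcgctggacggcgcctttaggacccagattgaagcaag
Mrps26: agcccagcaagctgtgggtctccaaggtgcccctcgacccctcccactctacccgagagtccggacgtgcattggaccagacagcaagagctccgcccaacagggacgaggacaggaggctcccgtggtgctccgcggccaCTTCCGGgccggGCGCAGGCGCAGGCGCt
Mrps6: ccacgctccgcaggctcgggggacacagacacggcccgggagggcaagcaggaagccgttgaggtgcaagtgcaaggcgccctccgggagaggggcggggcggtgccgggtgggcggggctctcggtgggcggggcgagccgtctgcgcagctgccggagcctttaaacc

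Mrpl45, which rose, holds the NRF1 letters 3 times, and Mrps26, which fell, holds the ETS letters followed by overlapping NRF1 letters. Neither Mrpl42, which rose, nor Mrps6, which fell, holds any of the 3 in full in the stretch shown. In Mrpl42 YY1 letters begin in the last bases shown and run past the end, so they are not marked. Single matches in the gene with the largest rise of each subunit, Mrpl32 and Mrps16, are shown as further examples, and not every gene that rose has one: Mrpl47 holds none of the 3 kinds of letters. In Mrpl32 the NRF1 letters begin 87 bases before it (chr13:14613107-14613132, minus strand), and in Mrps16 ETS letters begin 74 bases before it (chr14:20393550-20393572, minus strand). The start used for Mrpl45 and for Mrps16 lies inside the RefSeq gene span, which begins at another transcript's start.
Mrpl32 site: tgacccttGCGCATGCGCaagagggg
Mrps16 site: ggggcgctCTTCCGGgcttcagg

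Over the 10 genes that rose, 3 held ETS letters, 3 NRF1 letters and 2 YY1 letters, beside 25, 13 and 13 of the 69 promoters. The letters therefore stood in promoters of genes that rose, that fell and that did not pass the test. Among the transcripts of the factors and coactivators themselves, a list of 10 regulators of nuclear genes for mitochondria, 9 were tested, 0 rose and 1 fell in limma's test (the same counts at an unadjusted p of 0.05, and 2 higher and 3 lower in the authors' deposited table). The 1 that fell was Gabpb2, a beta subunit of GABP, with 3.66 ± 0.304 FPKM with si-Suclg2 and 4.46 ± 0.173 FPKM with si-nc (log2 difference -0.23 ± 0.063, limma adjusted p = 0.0241).

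Sites of the ribosome held genes with unlike differences. In the central protuberance, besides Mrpl46 and Mrpl18, Mrpl40 averaged 37.6 ± 1.81 FPKM with si-Suclg2 and 33.0 ± 2.74 FPKM with si-nc (log2 difference 0.19 ± 0.063) and just missed the threshold (limma, adjusted p = 0.0534). Mrpl38 averaged 20.4 ± 0.828 FPKM with si-Suclg2 and 20.4 ± 1.39 FPKM with si-nc (0.00, 95% interval -0.12 to 0.13). Mrpl48 averaged 23.5 ± 2.83 FPKM with si-Suclg2 and 26.5 ± 2.28 FPKM with si-nc (-0.17, -0.37 to 0.02). Mrpl52, also of this site, had a difference of 0.01 (-0.16 to 0.18). Of these 6 neighbours in the particle Mrpl46 and Mrpl18 passed the test without a replicate block and the other 4 did not. With the block Mrpl40 also passed as higher (limma, adjusted p = 0.00639) and Mrpl48 as lower (adjusted p = 0.0176).

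At the stalk, where translation factors dock, 3 genes did not pass the test. Mrpl12, the flexible stalk protein, averaged 27.9 ± 2.56 FPKM with si-Suclg2 and 27.4 ± 1.62 FPKM with si-nc, a log2 difference of 0.02 (95% interval -0.13 to 0.18). Mrpl10, its base, had 26.1 ± 0.507 FPKM with si-Suclg2 and 25.9 ± 0.672 FPKM with si-nc (0.01, -0.08 to 0.10), and Mrpl53 had 15.3 ± 1.75 FPKM with si-Suclg2 and 13.8 ± 0.803 FPKM with si-nc (0.13, -0.05 to 0.30). For Mrpl10 the interval leaves room for only a small change in either direction.

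Mouse mitochondria have 3 relatives of bacterial S18, and they stood at different levels. Mrps18c, at the place of S18 in the small subunit, had 70.6, 71.9, 78.0 and 73.7 FPKM in the si-Suclg2 samples, against 56.5, 59.2, 69.5 and 73.3 FPKM in the si-nc samples. The groups overlapped through si-nc 4 (0.19 ± 0.081, limma adjusted p = 0.113). With the replicate block Mrps18c passed (limma, adjusted p = 0.0186). Mrps18b, elsewhere in the small subunit, averaged 30.05 ± 0.711 FPKM with si-Suclg2 and 31.5 ± 1.22 FPKM with si-nc (-0.07, 95% interval -0.16 to 0.03). Mrps18a, which despite its name sits in the large subunit, averaged 55.9 ± 2.40 FPKM with si-Suclg2 and 57.5 ± 3.38 FPKM with si-nc (-0.04, -0.16 to 0.08). Mrps30, the other large-subunit protein with a small-subunit name, averaged 27.4 ± 1.26 FPKM with si-Suclg2 and 24.3 ± 2.53 FPKM with si-nc (0.17 ± 0.073, limma adjusted p = 0.108). It too passed with the block (limma, adjusted p = 0.0280). Mrps36, named for the small subunit, is now known as a subunit of the ketoglutarate dehydrogenase complex, and it had 27.9 ± 1.35 FPKM with si-Suclg2 and 27.5 ± 2.56 FPKM with si-nc (0.02, -0.13 to 0.17). It stands among the 78 by its symbol and in neither subunit count.

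Among genes with larger differences that did not pass, Mrps10 of the small-subunit head had 16.8, 17.9, 22.4 and 22.0 FPKM in the si-Suclg2 samples, against 16.7, 16.5, 15.7 and 18.0 FPKM in the si-nc samples. Its si-Suclg2 samples 3 and 4 were high and samples 1 and 2 were within the si-nc range (0.22 ± 0.093, limma adjusted p = 0.113). With the replicate block Mrps10 passed (limma, adjusted p = 0.0413). Mrpl55 of the large subunit averaged 20.5 ± 2.43 FPKM with si-Suclg2 and 17.4 ± 1.06 FPKM with si-nc (0.22 ± 0.082, adjusted p = 0.0783 in limma). It also passed with the block (limma, adjusted p = 0.00996). Mrpl44, a large-subunit protein whose variants cause a cardiomyopathy in humans, averaged 16.5 ± 0.710 FPKM with si-Suclg2 and 14.8 ± 0.988 FPKM with si-nc (0.15 ± 0.057, adjusted p = 0.0793 in limma). Mrps12, the counterpart of the decoding-centre protein S12, averaged 19.9 ± 1.81 FPKM with si-Suclg2 and 21.5 ± 1.81 FPKM with si-nc (-0.11, 95% interval -0.28 to 0.07). Mrpl58, a peptidyl-tRNA hydrolase built into the large subunit, averaged 20.1 ± 2.36 FPKM with si-Suclg2 and 19.9 ± 2.35 FPKM with si-nc (0.01, -0.21 to 0.23).

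Some subunits of the same ribosome carry other names. Of 5 such genes, 0 rose and 1 fell in limma's test (2 higher and 1 lower both at an unadjusted p of 0.05 and in the authors' deposited table), with a median log2 difference of 0.09. Ptcd3, an RNA-binding protein of the small subunit, had 7.37, 7.02, 6.40 and 6.81 FPKM in the si-Suclg2 samples, against 8.13, 8.58, 7.26 and 8.16 FPKM in the si-nc samples. Its groups overlapped at si-Suclg2 1 and si-nc 3 (-0.19 ± 0.063, limma adjusted p = 0.0482). Chchd1 had 37.7 ± 4.99 FPKM with si-Suclg2 and 31.3 ± 2.37 FPKM with si-nc (0.25 ± 0.095, adjusted p = 0.0770 in limma), and the GTP-binding Dap3 had 18.3 ± 1.29 FPKM with si-Suclg2 and 16.1 ± 1.44 FPKM with si-nc (0.18 ± 0.073, adjusted p = 0.0997 in limma). Gadd45gip1 (0.09, 95% interval -0.07 to 0.25) and Aurkaip1 (0.01, -0.15 to 0.17) did not pass. Leaving out a sample gave 0 to 1 of the 5 higher and 0 to 1 lower. The other alternatives gave 0 to 2 higher and 0 to 1 lower.

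Among genes of the machinery around the ribosome few passed the test without a replicate block, where 12% of all genes were higher and 14.9% lower. Of 25 assembly factors 0 rose and 1 fell (5 at an unadjusted p of 0.05, and 4 and 5 in the authors' deposited table), the GTPase Noa1, which averaged 4.38 ± 0.324 FPKM with si-Suclg2 and 5.22 ± 0.378 FPKM with si-nc (-0.21 ± 0.068, limma adjusted p = 0.0446). Of 16 translation and mRNA factors 1 rose and 1 fell, and these are partners in 1 complex that binds mitochondrial mRNA. Slirp had 63.4, 76.3, 69.99 and 77.7 FPKM in the si-Suclg2 samples, against 52.3, 48.2, 51.3 and 61.9 FPKM in the si-nc samples. Lrpprc had 10.1, 10.4, 8.05 and 8.28 FPKM in the si-Suclg2 samples, against 11.0, 11.5, 11.2 and 10.6 FPKM in the si-nc samples. Neither gene's groups overlapped, and the log2 differences ran in opposite directions, 0.42 ± 0.086 for Slirp (adjusted p = 0.00604) and -0.25 ± 0.081 for Lrpprc (limma, adjusted p = 0.0454).

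Of 22 genes for charging mitochondrial tRNAs 0 rose and 1, the synthetase gene Iars2, fell (-0.15 ± 0.048, limma adjusted p = 0.0469), with 4 of the 22 under an unadjusted p of 0.05 and 2 higher and 3 lower in the authors' deposited table. The 22 are tRNA synthetases and the amidotransferase subunits Qrsl1, Gatb and Gatc. Among the synthetases, Gars and Kars also serve the cytosol. Of 19 import genes Pmpcb, a subunit of the peptidase that cuts targeting sequences, rose (0.21 ± 0.064, adjusted p = 0.0341 in limma) and 0 fell, where 1 was lower at an unadjusted p of 0.05 and 2 in the authors' deposited table. Of 11 proteases and chaperones 0 rose and 1, the chaperonin partner Hspe1, fell (-0.24 ± 0.071, adjusted p = 0.0349 in limma), with 0 higher at an unadjusted p of 0.05 and 2 in the authors' deposited table. For 11 genes of mitochondrial DNA upkeep and transcription limma gave 0 calls, 4 unadjusted p under 0.05 and a median log2 difference of -0.07, and the authors' deposited table has 1 higher and 4 lower among 13. Without a replicate block 12% of all genes were higher and 14.9% lower, and with it 18% and 22.5%. With the replicate block, 2 assembly factors were higher and 4 lower, and 3 import genes were higher and 1 lower. In DNA upkeep and transcription 1 gene was then higher and 2 were lower. Over all alternatives up to 5 assembly factors were lower, up to 4 import genes were higher, up to 3 of the 22 tRNA-charging genes were higher and up to 3 genes of DNA upkeep and transcription were lower.

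The products of mitochondrial translation join nuclear-encoded subunits in the respiratory chain and ATP synthase, and 75 nuclear genes of these complexes and cytochrome c were tested. Of them 6 rose (8%, against 12% of all genes tested) and 1 fell (1.33%, against 14.9%), with a median log2 difference of 0.09. At an unadjusted limma p of 0.05, 22 were higher and 3 lower, in total 33.3% against 38.6% of all genes. Of all 10176 genes tested, 1718 were higher and 2214 lower at that p. The authors' deposited table has 42 higher and 9 lower at q under 0.05, where 19.1% of its genes are higher and 28.5% lower. With the replicate block 24 of the 75 rose, where 18% of all genes did. Without si-nc 4 16 rose, without si-Suclg2 1 15 rose, and over all other alternatives the count lay between 1 and 28. Cycs, which encodes cytochrome c, averaged 42.1 ± 2.83 FPKM with si-Suclg2 and 29.2 ± 1.37 FPKM with si-nc (0.51 ± 0.057, limma adjusted p = 0.000226). Cox5a of complex IV averaged 208 ± 21.2 FPKM with si-Suclg2 and 156 ± 5.25 FPKM with si-nc (0.41 ± 0.070, adjusted p = 0.00236), and Sdha, of the citric acid cycle and complex II, averaged 74.4 ± 3.87 FPKM with si-Suclg2 and 88.4 ± 0.511 FPKM with si-nc (-0.25 ± 0.044, limma adjusted p = 0.00285). No mitochondrial ribosomal protein gene had a difference as large as that of Cycs.

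Genes for the cytosolic ribosome stood on the other side of 0. Of 81 found and 77 tested, 0 rose (against 12% of all genes) and 19 fell (24.7%, against 14.9%) in limma's test. At an unadjusted p of 0.05, 22 passed, all lower, and the authors' deposited table has 4 higher and 69 lower. The median log2 difference was -0.14. Over the alternatives other than leaving out a sample, 1 to 44 were lower. Rps28 had 234 ± 14.3 FPKM with si-Suclg2 and 325 ± 19.8 FPKM with si-nc (-0.47 ± 0.060, adjusted p = 0.000461), and Rplp1, a stalk protein, had 568 ± 23.5 FPKM with si-Suclg2 and 738 ± 45.1 FPKM with si-nc (-0.38 ± 0.055, limma adjusted p = 0.00104). The difference between the cytosolic and the mitochondrial genes was described and not tested, and many cytosolic ribosomal protein genes have near-identical pseudogenes that can share reads.

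**Figure D4:**
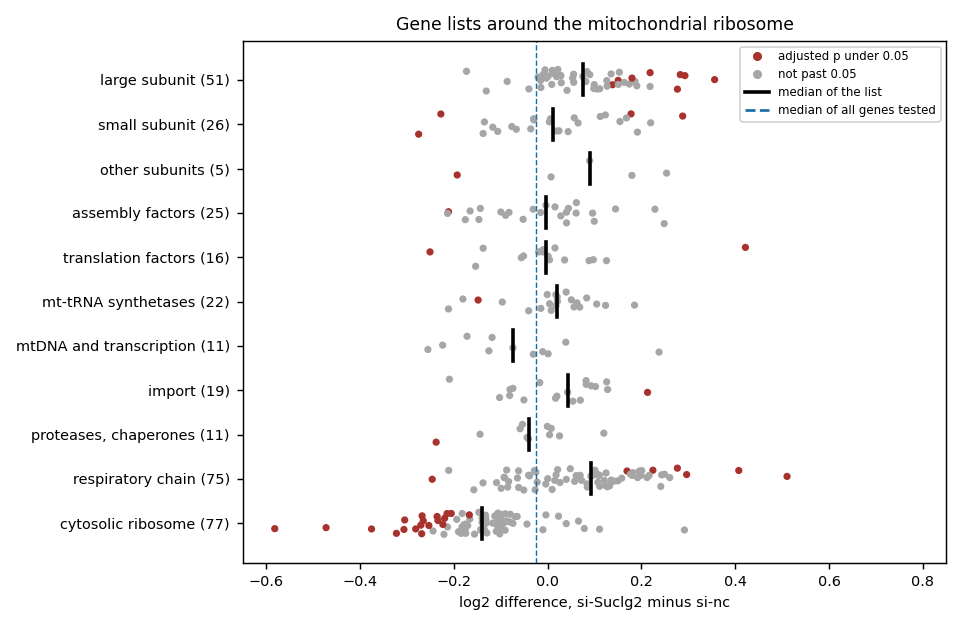
Log2 difference (si-Suclg2 minus si-nc) of every tested gene in the lists around the mitochondrial ribosome, one list per line with its number of genes, red where adjusted p was under 0.05; black bars are list medians and the dashed line is the median of all genes tested, -0.03. The large subunit has its median at 0.08 and the cytosolic ribosome at -0.14. The line for mt-tRNA synthetases also holds Qrsl1, Gatb and Gatc, which are not synthetases.

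Summed per sample, the 78 genes came to 1945, 1982, 2136 and 2144 FPKM in the si-Suclg2 samples, against 1858, 1908, 1955 and 2086 FPKM in the si-nc samples. The ranges overlapped, since si-nc 4 lay above si-Suclg2 1 and 2, while within every number the si-Suclg2 sample was higher. As a share of each sample's column sum this was 0.390% ± 0.00888 with si-Suclg2 and 0.378% ± 0.0106 with si-nc (SD, n = 4 each). The large subunit summed to 1436 ± 73.9 FPKM with si-Suclg2 and 1351 ± 63.3 FPKM with si-nc, the small subunit to 588 ± 29.0 FPKM with si-Suclg2 and 573 ± 32.5 FPKM with si-nc, and the cytosolic ribosome to 29451 ± 2090 FPKM with si-Suclg2 and 32605 ± 3107 FPKM with si-nc. No p is given for these sums.

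**Figure D5:**
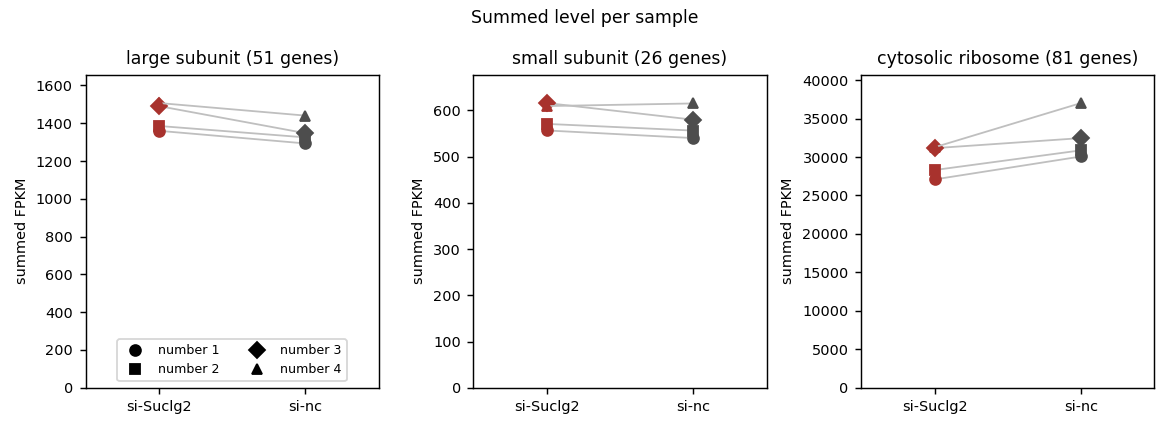
Summed FPKM per sample for the genes of the large subunit, the small subunit and the cytosolic ribosome, si-Suclg2 left and si-nc right in each panel, with lines joining samples of the same number. For the large subunit all 4 lines fall to the right, for the small subunit 3 of 4 do, and for the cytosolic ribosome all 4 climb.

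The sample numbers carried a difference of their own. Taken within each number, the median log2 difference of the 78 genes was 0.04, 0.03, 0.12 and 0.05 for numbers 1 to 4, with 48, 46, 62 and 51 genes positive. In 27 genes (34.6%) the difference was positive in all 4 numbers, where 23.7% of all genes were, and in 6 genes (7.69%) it was negative in all 4, where 30.5% of all genes were. Numbers 3 and 4 also stood above numbers 1 and 2 inside each group, with a median of 0.11 on the log2 scale for the 78 genes in the si-Suclg2 samples and 0.08 in the si-nc samples. In 54 of the 78 genes (69.2%) this held in both groups, against 37.9% of all genes. Within numbers 1 and 2 alone 12 of the 78 genes passed (31.2% of all genes), 10 higher (14.5%) and 2 lower (16.7%). Within numbers 3 and 4 alone 16 passed (32.4%), 13 higher (14.6%) and 3 lower (17.7%). Mrpl32, Mrpl45, Mrpl47, Mrpl42 and Mrps16 passed in each.

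The authors' deposited table, made with DEGseq, has q under 0.05 for 34 of the 78 genes (43.6%), 28 higher and 6 lower with si-Suclg2, where 47.6% of all 15465 genes have it, 19.1% higher and 28.5% lower. The total share of the 78 genes is near that of the table, while the share higher, 35.9%, lies above and the share lower, 7.69%, below those of the table. The log2 fold changes of the authors' deposited table and the differences given here ranked the 78 genes alike (Spearman rho 0.995 across genes, from the same 8 samples).

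Some levels could include reads of other genes, since the sources used here name neither the counting tool nor its use of strand. In the GENCODE M21 annotation of GRCm38 an exon overlaps another gene in 33 of the 78 genes, on the opposite strand in 28 and on the same strand in 8. Mrpl46 and Mrps11 of the small subunit start head to head, and Mrps11 averaged 15.2 ± 1.18 FPKM with si-Suclg2 and 13.6 ± 1.198 FPKM with si-nc (0.15 ± 0.073, limma adjusted p = 0.152). Of the other genes that passed, Mrpl47 overlaps Ndufb5 and Actl6a, Mrpl18 overlaps Tcp1, Mrpl24 overlaps Rrnad1 and Mrps26 an antisense transcript. None of Ndufb5 (0.05), Actl6a (0.05), Tcp1 (0.04) and Rrnad1 (-0.00) passed the test. Mrps6 shares exons with Slc5a3 on the same strand, which averaged 0.105 FPKM with si-Suclg2 and 0.145 FPKM with si-nc. Processed pseudogenes that carry a member's name are annotated for Mrpl23, Mrpl48 and Mrps36 (5 in all), so the values of these genes are less certain. Pseudogenes under other names were not searched for, so the remaining genes, including those that passed, may have some too.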

How the data were processed

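RNA was measured in 8 samples, 4 si-Suclg2 and 4 si-nc, grouped by their titles. Per the labels' protocols, total RNA was extracted with TRIzol and libraries were read on Illumina HiSeq machines. GRCm38.p4 and mm10 are the genome builds in the submitters' processing notes. Aligner, counting tool, strand setting and read depth: not given in the sources used here. Deposited values per gene and sample are treated as FPKM made by the authors. The header does not name the unit, which was inferred because the values are not whole and the columns sum to unequal totals. The authors' log2 fold change, p-value and q-value, per the file headers from DEGseq, are quoted only as theirs. Read counts were not used here, so no counting interval is given. A spreadsheet had changed 22 symbols, which were restored through the gene ID, and 1 symbol occurred more than once.

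The 10176 genes whose mean reached 1 FPKM in either group entered limma 3.58.1 (R 4.3.3) as log2(FPKM + 1). The model had a group term and a mean trend, and p-values were adjusted by Benjamini-Hochberg at 0.05. Differences are si-Suclg2 minus si-nc on that scale, which understates changes of low genes. The procedure was tested on simulated data, where it called 35.8% of 67 genes with a log2 change of 0.25. It called 88.1% of 67 genes at 0.5 and 0.1% of 9976 genes at 0. Changes of 0.25 or less could thus often go uncalled. Replicates carry numbers 1 to 4. Deviations of same-numbered samples correlated at 0.405 to 0.553, above the 0.1 used to treat numbers as pairs, so a fit with a replicate block accompanies results that it changes. The pairing comes from this correlation, not from the labels. Deviations of differently numbered samples were not compared. The correlation therefore cannot tell pairs from a shared division of numbers 1 and 2 from 3 and 4. Subunit classes and the 13 lists of related genes and markers came from general knowledge, and members, lists and tests were chosen with earlier results of these data known. Named genes were the siRNA target, members past the threshold, the 10 largest differences, the 5 highest and 5 lowest levels, members and other subunits chosen for their role, and up to 3 genes past the threshold from each list with the smallest p. List entries that were not matched include Mtrfr, Cd209a, Pecam1, Trac and Ncr1. Some genes of the lists are not reported here. Tables were joined in Python 3.11.15 with pandas 2.3.3. Alternatives were other pseudocounts, filters, scalings, a replicate block, subsets of numbers, limma without a trend, and leaving out each sample.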

Additional observations from a re-analysis of the deposited data

Results flagged for a closer look

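A sample is listed here where it stood apart from the other 3 of its group by a share of the group's whole range above Dixon's 95% critical value. Chance alone gives this in about 1 in 20 groups, and 10 of the 212 groups examined showed it, 8 of them among the 156 groups of the 78 mitochondrial ribosomal protein genes.

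In the si-Suclg2 group, sample 4 had 19.4 FPKM of Mrps9 where the others had 16.6 to 17.0, sample 1 had 17.1 FPKM of Mrps5 where the others had 18.0 to 18.2, and sample 2 had 13.3 FPKM of the tRNA synthetase gene Iars2 where the others had 12 to 12.07. In the si-nc group, sample 4 stood above the others with 62.6 FPKM of Mrps18a (others 55.4 to 56.1), 37.1 FPKM of Mrpl54 (30.3 to 31.1), 23.4 FPKM of Mrpl58 (18.3 to 19.1) and 85.01 FPKM of the chaperonin gene Hspe1 (72.4 to 72.9), and below them with 25.2 FPKM of Mrpl43 (27.6 to 27.7). Sample 2 of that group was low in Mrps31 with 7.68 FPKM (others 8.70 to 8.87), and sample 1 was low in Mrpl41 with 6.47 FPKM (7.48 to 7.65). Of these genes only Iars2 and Hspe1 passed the test between the groups.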

How the results depend on the processing

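Over the 36 named mitochondrial ribosomal protein genes and 21 alternative settings, 642 of 756 values kept their side of the threshold, 42 gained a call, 72 lost one and 0 changed sign while called. Uncalled differences could change sign among the 642, as for Mrps12, at -0.11 in the main fit and 0.02 with numbers 3 and 4 alone. The median log2 difference of the 78 genes stayed between 0.02 and 0.07 in every setting tried, with 44 to 62 genes positive. Main counts were 10 higher and 2 lower of the 78 genes, and 1221 and 1519 of all genes.

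With the replicate block the 78 genes gave 20 higher and 4 lower, with the block and trimmed-mean scaling 25 higher, and with the division of numbers 1 and 2 from 3 and 4 as a term 22 higher. All genes gave 1832, 2052 and 1995 higher in these 3 settings, and 2294 lower with the block and 2539 lower with the division. Of 51 large-subunit genes 16, 19 and 16 were higher and 2, 1 and 1 lower. Of 26 small-subunit genes 4, 6 and 6 were higher. Among all genes 18% were higher with the block, and 20.2% with the block and trimmed-mean scaling. With means of pairs of numbers all counts for the 78 genes and both subunits were 0, 7 of the 78 had an unadjusted p under 0.05, and all genes gave 125 higher and 147 lower; this setting has fewer samples. Genes lower were 1 of the 78, all in the small subunit, with no filter, trimmed-mean scaling, quantile normalization or limma without a trend. With numbers 1 and 2 alone 1 large-subunit and 1 small-subunit gene were lower. Small-subunit genes higher were 1 with no filter or a common column sum. Leaving out each sample gave 5 to 11 higher and 0 to 1 lower of the 78, 4 to 9 higher and 0 to 1 lower in the large subunit, and 1 to 2 higher and 0 to 1 lower in the small subunit. All genes gave 955 to 1175 higher and 1171 to 1448 lower in these fits. The median of small-subunit genes was negative with the common column sum (-0.01) and ran from -0.02 to 0.04 when samples were left out.

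From 100 bases before to 50 after the start, a shorter window by construction, the E-box stood in 2.90% of member promoters and 6.75% of promoters of genes tested, CCAAT in 27.5% and 26.5%, and the TATA letters in 1.45% and 2.79%. The filter at a mean of 5 FPKM leaves no value for Suclg2 or Gabpb2. The causes of the other shifts were not tested. Depth is unknown.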
